A study of Mus musculus with 43 samples.

Results

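The vesicle release genes are 75 of the 35825 genes in the deposited tables. They were taken by a rule on symbols that holds no measured value but was set with earlier results of these data known. The rule covers 12 families: 17 synaptotagmins (*Syt*), 15 syntaxins (*Stx*), 8 vesicle-associated membrane proteins (*Vamp*), 6 syntaxin binding proteins (*Stxbp*), 4 genes each of the SNAP-25 type (*Snap23*, *Snap25*, *Snap29*, *Snap47*), the complexins (*Cplx*), *Rims*, *Unc13* and *Rab3*, and 3 genes each of the synapsins (*Syn*), *Doc2* and *Sv2*. They were followed through 43 single neurons of the nucleus accumbens lateral shell that project to the ventral tegmental area (NAcLat→VTA cells), each patched in a brain slice, drawn into the pipette and sequenced as 1 library. Of these cells, 23 came from mice on regular chow (REG, labelled NORM) and 20 from mice on a high-fat diet (HFD), which had free access to standard chow and, for 4 weeks or longer, to a chow of 60% fat. The labels give no strain, age or sex, and the study's methods list C57BL/6J mice, male and female and 6 to 8 weeks old, beside transgenic lines used in its other experiments. Both diets shared the injection of fluorescent retrobeads into the ventral tegmental area 7 days before recording. By the labels, batch 1 held 13 REG and 5 HFD cells and batch 2 held 10 REG and 15 HFD cells.

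The cells stem from 10 REG and 11 HFD mice, but the labels do not name the mouse of a cell, so each diet is 1 sample. Values are therefore given side by side without a test or a standard error, counts of genes past a fold describe these 43 libraries, and the SDs below describe cells, not mice. Intervals on shares of cells are exact (Clopper-Pearson) binomial intervals, which cover the counting of cells only and treat cells as independent draws, so they do not compare the diets. Reads of an amplified library without molecular identifiers are not independent molecules.

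Neurons release transmitters and peptides when a vesicle fuses with the cell membrane. A VAMP on the vesicle zips together with a syntaxin and a SNAP-25 type protein on the target membrane to form the SNARE complex, which pulls the membranes into contact. Syntaxin binding proteins of the Munc18 type guide the assembly, Munc13 (*Unc13*) and RIM (*Rims*) proteins make docked vesicles ready, Rab3 GTPases and synapsins hold the vesicle pool, complexins hold the assembled complex until calcium arrives, and synaptotagmins and Doc2 proteins bind the calcium. Accumbens projection neurons use this machinery for GABA at their inhibitory terminals, and they also store neuropeptides in dense-core vesicles.

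Total counts per cell ranged from 176961 to 16919555, with medians of 1427698 in REG and 1416982 in HFD cells. The transcript *Lars2*, which is not a release gene, took between 2.33% and 79.8% of a cell's counts. The labelled cell type was checked against its markers. *Slc32a1* was detected in 36 and *Bcl11b* in 42 of 43 cells. *Gad1*, *Gad2*, *Ppp1r1b*, *Rgs9*, *Drd1*, *Tac1* and *Pdyn* were detected in all 43 cells, and summed markers of glutamatergic neurons had medians of 4.51 and 4.27 counts per 1000000 counts of the cell (CPM) in REG and HFD cells. Each of the 7 microglial markers had a higher mean CPM in HFD cells. Their sum ranged from 0 to 445 CPM in REG cells (median 29.8) and from 0 to 907 CPM in HFD cells (median 63.3), and 2 REG and 5 HFD cells had at least 4 of the 7 above 15 CPM. The 5 oligodendrocyte markers summed to medians of 24 CPM in REG and 45.5 CPM in HFD cells (highest 368 and 1113), with 3 of 5 higher in mean in HFD. The 4 markers of indirect pathway neurons had medians of 13.2 and 12.5 CPM (highest 582 and 1380), also with 3 higher in mean in HFD. In the other direction, 5 of 6 astrocyte markers were higher in mean in REG, with summed medians of 40.7 and 35.0 CPM (highest 449 and 639). Of 4 endothelial markers, 3 were higher in mean in REG, with summed medians of 2.38 and 0.762 CPM. The summed medium spiny neuron markers had medians of 4226 CPM in REG and 2842 CPM in HFD cells. The part of these differences in the diet values below was not tested beyond the values without the 7 cells with microglial markers.

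Scaled to total counts, the release genes as a whole took a similar mean share of the RNA of REG and HFD cells, with a wide spread between single cells. Summed over the 75 genes, a REG cell held 6868 ± 1992 CPM (SD, n = 23 cells; lowest 2888, median 6901, highest 11007). An HFD cell held 7027 ± 2812 CPM (SD, n = 20 cells; lowest 862, median 6869.6, highest 13822). The HFD range enclosed the REG range, and the log2 ratio of the means was 0.03, with −0.01 in both batch 1 and batch 2. With TMM and DESeq2 factors the log2 ratio was 0.27 and 0.80. The lowest sum was in HFD cell 8, where *Lars2* took 79.8% of the counts, and the highest was in HFD cell 19, where *Lars2* took 4.23%. With *Lars2* and *Gm19220* left out of the totals, the sums were 9889 ± 2362 CPM in REG and 10119 ± 2333 CPM in HFD cells.

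Most of the 75 genes were detected somewhere, but few were detected everywhere. A cell had counts on 35 to 66 of them (median 56), and on 23 to 54 (median 47) after every cell was thinned to 150000 counts. The 13 genes detected in all 43 cells, a share whose exact (Clopper-Pearson) 95% interval reaches down to 91.8%, included *Snap25*, *Snap47*, *Syt1*, *Syt5*, *Syt11*, *Stx4a*, *Cplx1*, *Cplx2*, *Rab3a*, *Sv2a* and *Unc13c*. The 13 cover the target membrane SNAREs, the calcium sensors and the complexins, but no vesicle SNARE. *Vamp2*, the nearest of these, was detected in 42 of 43 cells. At a limit of 15 CPM in place of any count, 5 genes remained in every cell, and after thinning 7 did.

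The expression filter of the study asks for a mean CPM above 4 and for 5 or more cells above 15 CPM. It was passed by 63 of the 75 genes. The other 12 were *Syt8*, *Syt9*, *Syt10*, *Syt15*, *Syt17*, *Vamp5*, *Vamp9*, *Stx11*, *Stx19*, *Doc2a*, *Cplx3* and *Cplx4*. *Syt8* had no count in any of the 43 cells, which allows a share of up to 6.98% of cells with a count when 3 cells are taken as the most that a 0 allows, and of up to 8.22% by the exact interval. *Cplx4*, a complexin best known from the retina, had counts in 1 REG cell, and *Cplx3*, its close relative, in 9 cells. *Syt9*, a fast calcium sensor in some limbic and striatal neurons, was detected in 6 of 43 cells and *Syt2*, the fast sensor of hindbrain synapses, in 24 cells at a mean of 5.06 TPM, the reads of a gene per transcript length, set to sum to 1000000 in a cell.

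**Figure D1:**
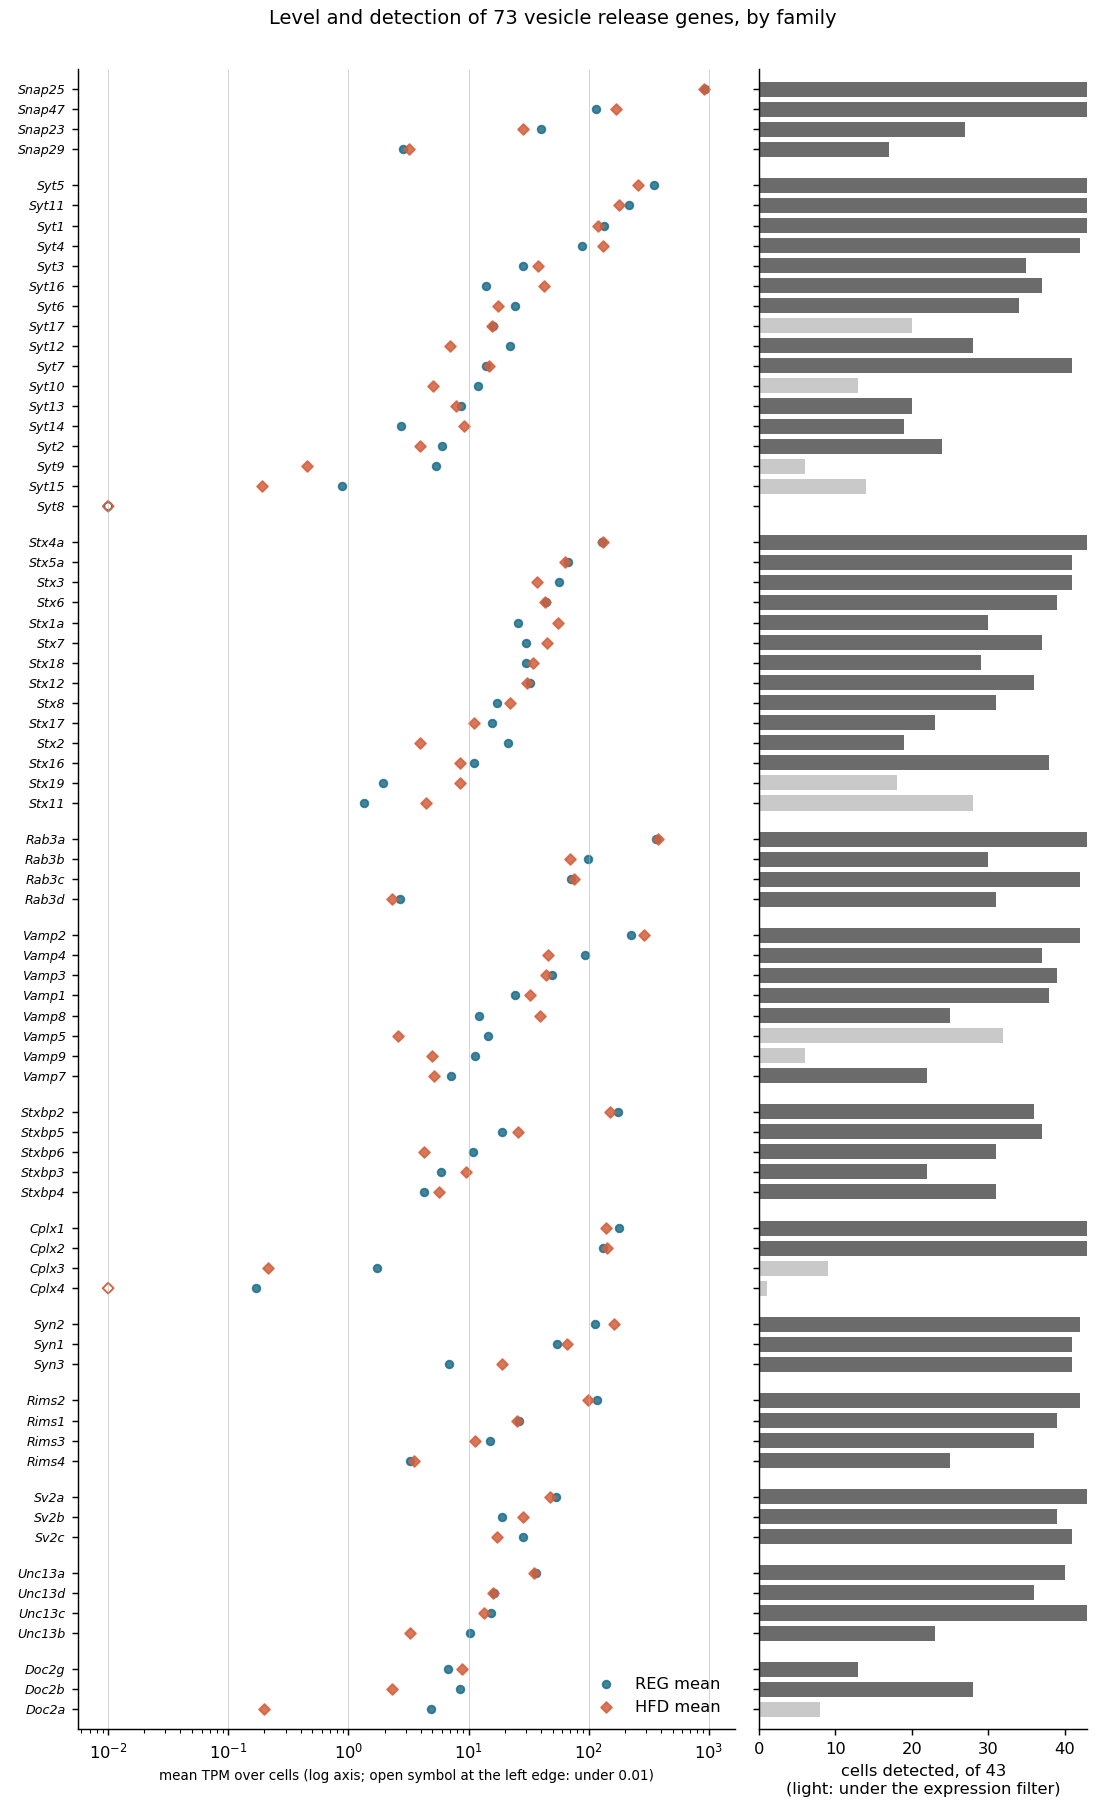
Mean TPM of 73 of the 75 vesicle release genes over 23 REG cells (circles) and 20 HFD cells (diamonds) on a log axis, grouped by family, and the number of the 43 cells in which each was detected (bars, light for the 12 genes under the expression filter). *Snap25* leads at a mean of 926 TPM over all cells, and within most families the means fall over more than a factor of 10.

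Levels of different genes were compared only per length, as TPM. The TPM of the authors divides each gene's reads by the effective length of the transcripts they were assigned to, so reads assigned to a short annotated transcript raise it. The gene with the highest mean TPM in a family is called its leading gene here, and where CPM, which is not divided by length, or CPM per kilobase of the longest coding transcript gave another leading gene, this is said.

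Among the SNAREs of the target membrane, *Snap25* was the most abundant release gene of all, with a mean of 926 ± 668 TPM (SD, n = 43 cells; lowest 62.9, median 688, highest 3096). It made up 83.9% of the summed TPM of its family and was the highest of the family in 42 of 43 cells. *Snap47*, a SNAP-25 relative linked to the release of brain-derived neurotrophic factor, followed at a mean of 139.7 TPM. *Snap23*, the general form outside neurons, had 34.3 TPM and *Snap29*, which acts in autophagy, 2.99 TPM. The gap between *Snap25* and *Snap47* was 6.63-fold in mean TPM.

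The syntaxins were far more evenly spread. *Stx4a*, which serves exocytosis in many cell types, led the family at 129.8 TPM but was the highest syntaxin in 17 of 43 cells, and 12 different syntaxins were highest in at least 1 cell. *Stx5a* of the Golgi followed at 65.8 TPM, and *Stx1a*, a neuronal syntaxin of fast release, had 39.7 TPM. The lead of *Stx4a* depends on the length used. It carried 3.0 TPM per CPM, and it led neither by CPM nor by CPM per kilobase of the longest coding transcript. The gene (chr7:127824294-127849019, plus strand, GRCm38) shares 5.25% of its exonic bases with annotation on the opposite strand, which an unstranded library cannot separate.

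On the vesicle side, *Vamp2*, the synaptic vesicle SNARE of the forebrain, led at 255 ± 208 TPM (SD, n = 43 cells; lowest 0, median 209, highest 861) and was the highest *Vamp* in 33 cells. *Vamp1*, its close relative of fast hindbrain and spinal synapses, had 28.0 TPM and exceeded *Vamp2* in 1 of 43 cells. *Vamp4*, of the trans-Golgi network and endosomes, followed *Vamp2* at 71.2 TPM, and *Vamp3*, of recycling endosomes, had 46.9 TPM.

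Of the syntaxin binding proteins, *Stxbp2* (Munc18-2), best known from immune and epithelial cells, led by the mean, at 163 TPM. It was detected in 36 of 43 cells and was the highest of the family in 21. It led neither by CPM nor by CPM per kilobase, and it carried 2.35 TPM per CPM, with an annotated transcript as short as 219 bases. *Stxbp5* (tomosyn), a soluble protein that competes with VAMP for the target SNAREs, had 22.1 TPM.

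Among the calcium sensors, *Syt5* led at 304 ± 278 TPM (SD, n = 43 cells; lowest 0.575, median 259, highest 1001), followed by *Syt11* at 198, *Syt1* at 127 and *Syt4* at 108 TPM. *Syt1* is the fast sensor of most forebrain synapses, *Syt5* has been placed on dense-core vesicles, and *Syt4* and *Syt11* are forms without the usual calcium binding in their first C2 domain. *Syt5* exceeded *Syt1* in TPM in 33 of 43 cells. *Syt5* was the highest synaptotagmin in 26 cells, *Syt11* in 9, *Syt4* in 5 and *Syt1* in 1. By CPM *Syt11* led, and by CPM per kilobase *Syt5* did. *Syt7*, the slow sensor of asynchronous release, was detected in 41 cells at a mean of 14.3 TPM, *Syt10* in 13 and *Syt17* in 20. The *Doc2* genes, of which *Doc2a* and *Doc2b* are high-affinity sensors tied to spontaneous and asynchronous release, were the lowest family, at 16 TPM summed over its 3 genes, and 11 of 43 cells had none of them. *Doc2b* was the highest *Doc2* in 20 cells and *Doc2g* in 10, although *Doc2g* had the higher mean TPM, 7.71 against 5.56 TPM. By mean CPM *Doc2b* led, at 17.3 against 8.23 CPM. *Doc2g* shares 63.5% of its exonic bases with a gene on the same strand (*Gm49405*), and *Doc2a* shares 39.4% with *Ino80e* on the opposite strand, so their values are uncertain.

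The complexins came down to a pair. *Cplx1* had a mean of 161 ± 116 TPM (lowest 7.88, median 142, highest 464) and *Cplx2* of 136 ± 79.0 TPM (lowest 14.5, median 133, highest 292; SD, n = 43 cells). Neither stood above the other beyond the spread of the cells. *Cplx1* was the higher in 14 of 23 REG and 9 of 20 HFD cells, and *Cplx2* in the remaining 9 and 11. By CPM, without the division by length, *Cplx2* led.

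*Cplx1* and *Cplx2* also differed in their correlation with *Snap25*, which was taken over both diets and batches together and not computed for all genes. As a description over 43 cells, which share libraries of unequal depth and a common total, the CPM of *Cplx1* followed that of *Snap25* with a Spearman rho of 0.59, the highest of the 10 release genes compared, and *Cplx2* had −0.22. *Syn2* had 0.49, *Rab3a* 0.45 and *Vamp2* 0.40. With *Lars2* and *Gm19220* out of the totals, *Cplx1* kept 0.58 and *Cplx2* −0.23.

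The stretches of 250 bases before a RefSeq start of *Cplx1* (GRCm38.p6, chr5:108550028-108550277, minus strand) and of *Cplx2* (chr13:54302306-54302555, plus strand) are shown for this pair, 5′ to 3′ on the strand of the gene, with the letters of a GC box (GGGCGG or its reverse complement CCGCCC) in capitals. The *Cplx2* start lies upstream of the gene as annotated in GENCODE vM21, which begins at position 54371349.
*Cplx1*: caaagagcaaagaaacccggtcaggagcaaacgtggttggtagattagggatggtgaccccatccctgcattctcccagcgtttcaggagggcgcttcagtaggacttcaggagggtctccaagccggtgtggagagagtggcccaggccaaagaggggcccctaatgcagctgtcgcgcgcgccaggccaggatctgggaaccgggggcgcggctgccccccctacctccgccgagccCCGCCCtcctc
*Cplx2*: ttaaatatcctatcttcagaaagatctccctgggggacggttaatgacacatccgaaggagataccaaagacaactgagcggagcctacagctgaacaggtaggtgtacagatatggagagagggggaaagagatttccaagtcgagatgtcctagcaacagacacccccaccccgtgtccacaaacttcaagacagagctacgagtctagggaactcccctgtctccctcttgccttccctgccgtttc
The *Cplx1* stretch holds 15 CpG dinucleotides and 1 GC box, and the *Cplx2* stretch holds 7 CpG and none. Over the 72 such stretches found for 56 of the 75 genes, the median was 14 CpG, beside 6 over all 32851 stretches of the table. A GC box on either strand was present in 58.3% of the release gene stretches and 32.7% of all, a TATA box (TATAAA) in 6.94% and 12.4%, and a cAMP response element (TGACGTCA) in 2.78% and 1.55%. The letters are a description, and no binding was measured.

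For the proteins that make vesicles ready, *Rims2* led its family at 108 TPM (lowest 0, median 48.5, highest 1419) and exceeded *Rims1*, at 25.8 TPM, in 29 of 43 cells. *Unc13a*, the main Munc13 of forebrain synapses, led at 35.7 TPM, ahead of *Unc13d*, best known from cytotoxic granules, at 16.1, *Unc13c*, a form enriched in the cerebellum, at 14.4 and *Unc13b* at 6.99 TPM. *Unc13c* was nevertheless the only one of the 4 detected in every cell, and it led by CPM per kilobase. The order of *Unc13d* and *Unc13c* depends on the length used. *Unc13d* carried 1.81 TPM per CPM and *Unc13c* 0.163. By mean CPM *Unc13d* was the lower, at 8.87 against 88.4 CPM, and it was also the lower by CPM per kilobase. *Rab3a*, the vesicle GTPase of most synapses, led its family at 368 TPM (lowest 8.60, median 363, highest 1268) and was the highest *Rab3* in 40 cells. *Rab3c*, also found on secretory vesicles, was detected in 42 cells at 72.9 TPM, and *Rab3b* in 30 cells at a mean of 85 TPM but a median of 8.0 TPM.

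*Syn2* was the leading synapsin at 136 TPM and the highest in 35 cells, with *Syn1* at 59.4 and *Syn3* at 12.5 TPM. The synapsins tether vesicles into a reserve pool, and *Syn3* is the form best known from immature neurons. *Sv2a*, the vesicle glycoprotein that binds the antiepileptic drug levetiracetam, led its family at 50.5 TPM and was the highest in 29 cells. *Sv2b* had 23.2 TPM, and *Sv2c*, the form enriched in the basal ganglia, 23 TPM.

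**Figure D2:**
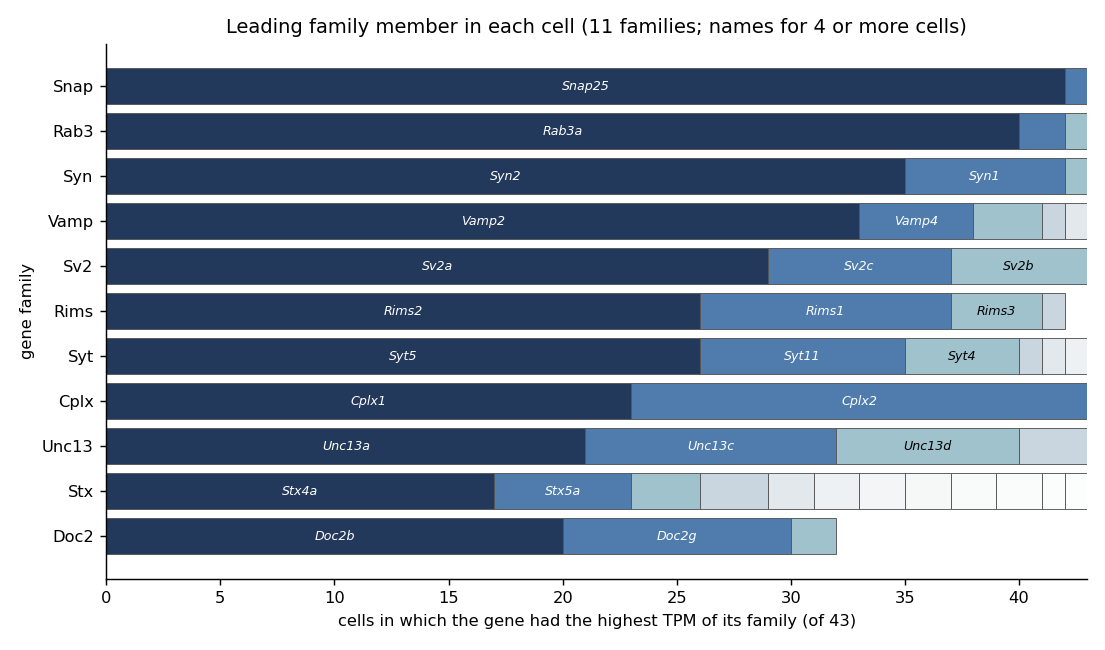
Number of the 43 cells (x axis) in which each gene had the highest TPM of its family (y axis), for 11 of the 12 families, with genes highest in at least 4 cells named. *Snap25* was highest in 42 cells and *Rab3a* in 40, the complexins were split between a pair, the 15 syntaxins were spread over 12 genes, and 11 cells had no count for any *Doc2* gene and 1 cell none for any *Rims* gene.

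The comparison of diets asked whether the release machinery of these cells differed in RNA between HFD and REG. For most of them the mean CPM of the diets lay within 2-fold. The log2 ratio of mean CPM, HFD over REG, was taken without a pseudocount, and a gene was counted as higher or lower when the ratio passed 2-fold. Of the 63 genes over the filter, 7 were at least 2-fold higher in HFD cells (11.1%, beside 9.04% of all 10802 genes over the filter) and 5 at least 2-fold lower (7.94%, beside 14.3% of all). The remaining 51 lay between, and 34 were within 0.5 of 0 on the log2 scale (54.0%, beside 47.3% of all). The median ratio was −0.03 with an interquartile range of 0.88, beside −0.13 and 1.05 over all genes, and the batch medians were −0.15 and −0.04. Neither count stands apart from its background enough to be called particular to the release genes, and no test was made.

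The count of higher genes depended on the scaling. With DESeq2 size factors in place of total counts, 19 of 63 release genes were at least 2-fold higher and 5 of 63 lower, beside 21.6% and 12.7% of all genes. With TMM factors 9 of 63 were higher and 5 of 63 lower, beside 13.1% and 12.3%. The DESeq2 factors of HFD cells 19, 8 and 17 were 0.170, 0.283 and 0.331, against at least 0.765 in the other 40 cells, and a small factor scales the values of its cell up. Under them *Snap25* had a log2 ratio of 1.07 and *Rab3a* of 1.19, where the median of all genes was shifted by 0.270. Small ratios changed sign with these factors: *Syt1* had 0.49, *Syt11* 0.17, *Sv2a* 0.58, *Unc13c* 0.26 and *Unc13a* 0.02, where each is below 0 by total counts, and *Rims2* had −0.02, where it is above. Over all cells, *Syt7* and *Stxbp5* were within 0.1 of 0 by total counts and by both kinds of factor. By total counts, each was above 0 in batch 1 and below 0 in batch 2. Values below are scaled to the total count unless another scale is named.

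Direction was often not shared by the batches. The ratio had the same sign in both for 27 of 63 genes (42.9%, beside 47% of all). A sign shared by both batches and kept when any single cell was dropped was found for 24 of 63 genes (38.1%, beside 38.0% of all). Among these, 6 were at least 2-fold higher (9.52%, background 6.04%) and 5 at least 2-fold lower (7.94%, background 11.6%). The count of higher genes also moved with single cells. Without HFD cells 13 and 19, chosen after their values were seen, 3 genes were at least 2-fold higher and 5 lower, beside 7.53% and 14.6% of all genes. Without the 7 cells with microglial markers the counts were 8 and 9, beside 10.1% and 18.5% of all genes.

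**Figure D3:**
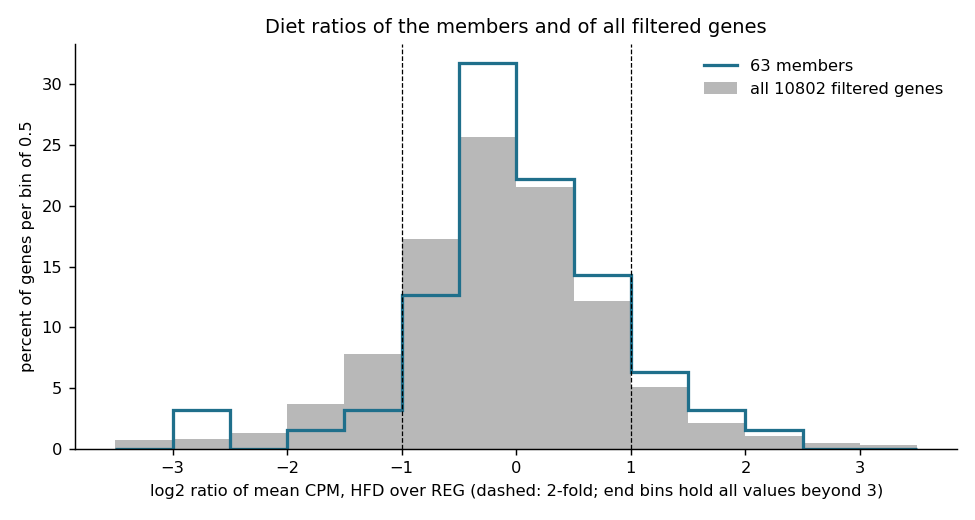
Percent of genes (y axis) per bin of 0.5 of the log2 ratio of mean CPM, HFD over REG (x axis), for the 63 release genes over the filter (line) and all 10802 genes over the filter (bars), with dashed lines at 2-fold. The line follows the bars, with 34 of 63 release genes in the central bins between −0.5 and 0.5.

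Of 24 genes listed as the core of fast release, 22 were over the filter, and their median log2 ratio was 0.00. The medians were −0.29 in batch 1 and 0.22 in batch 2. The ratio had the same sign in both batches for 8 of 22 genes (36.4%, beside 47% of all). In that list 3 genes were at least 2-fold higher in HFD cells (*Stx1a*, *Syn3* and *Vamp1*, described with the other genes past 2-fold; 13.6%, beside 9.04% of all genes), none was at least 2-fold lower (beside 14.3% of all) and 14 were within 0.5 of 0. *Snap25* had 1200 ± 708 CPM in REG cells (lowest 341, median 957, highest 3043) and 1165 ± 981 CPM in HFD cells (lowest 105, median 919.9, highest 4386). The REG range lay inside the HFD range, and the log2 ratio was −0.04, with −0.22 and −0.17 in batches 1 and 2. *Rab3a* had a log2 ratio of 0.05, *Sv2a* of −0.06, *Cplx2* of 0.12, *Rims2* of 0.15 and *Syt1* of −0.19. For *Cplx1* it was −0.35, below 0 in both batches (−0.63 and −0.50) but 0.04 with TMM and 0.80 with DESeq2 factors. *Unc13a*, *Unc13c* and *Rims1* had ratios of −0.26, −0.25 and −0.32.

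Some genes, in the core list and outside it, were moderately higher or lower without passing 2-fold. *Vamp2* had 246 ± 167 CPM in REG cells (lowest 0, median 239, highest 588) and 378 ± 304 CPM in HFD cells (lowest 44.3, median 273, highest 1238). Cells of both diets overlapped, and the log2 ratio was 0.62 (batches 0.19 and 0.34). *Syn2* had a ratio of 0.58 with batches of opposite sign (−1.0 and 0.68). In the other direction, *Sv2c* of the core list had −0.75 (batches −1.44 and −0.58). Outside the list, *Vamp4* had −0.93 (−1.19 and −0.54) and *Syt5* had −0.45 (−0.15 and −0.45, and 0.04 with DESeq2 factors).

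Summed by family, the means lay close for most. The summed CPM of 9 families had log2 ratios between −0.25 (*Unc13*) and 0.23 (*Stxbp*), and with DESeq2 factors between −0.03 (*Rims*) and 1.07 (SNAP-25 type), the *Syt*, *Cplx*, *Unc13* and *Sv2* families turning from below to above 0. The synapsins had 0.54, from −0.83 in batch 1 and 0.64 in batch 2, and the *Vamp* genes 0.40, also with batches of opposite sign. With TMM and DESeq2 factors the synapsins had 0.95 and 1.81, and the *Vamp* genes 0.64 and 1.04, so that both were past 2-fold with DESeq2 factors. The *Doc2* genes, the lowest family, had −1.12, below 0 in both batches (−1.92 and −1.32) and with TMM and DESeq2 factors (−0.88 and −0.78). The genes of this family did not share a direction: *Doc2b* had −1.97 and *Doc2g* 0.97 (−1.78 and 1.44 in batches 1 and 2). *Doc2a*, under the filter, added a mean of 6.96 CPM to the REG sum, with 128 CPM in REG cell 14. Of the syntaxins of endosomes, the Golgi and other membranes, *Stx2* and *Stx17* were past 2-fold and are described with the genes past 2-fold. *Stx3*, *Stx5a*, *Stx6*, *Stx7*, *Stx8*, *Stx12*, *Stx16* and *Stx18* had log2 ratios between −0.71 (*Stx3*) and 0.58 (*Stx18*), and *Stx4a* had 0.11.

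Over all cells, genes known from peptide or asynchronous release gave no common direction. The median log2 ratio was −0.03 over the 7 of 10 listed that were over the filter. The batches disagreed, with medians of 0.62 in batch 1 and −0.16 in batch 2. *Syt4*, *Snap47* and *Rab3c* had log2 ratios of 0.59, 0.51 and 0.64, each above 0 in both batches. *Syt7* was at −0.03, *Stxbp5* at −0.04 and *Syt11* at −0.34, each above 0 in batch 1 and below 0 in batch 2. *Doc2b* was at −1.97. The other 3 genes of this kind, *Syt10*, *Syt17* and *Doc2a*, were under the filter.

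**Figure D4:**
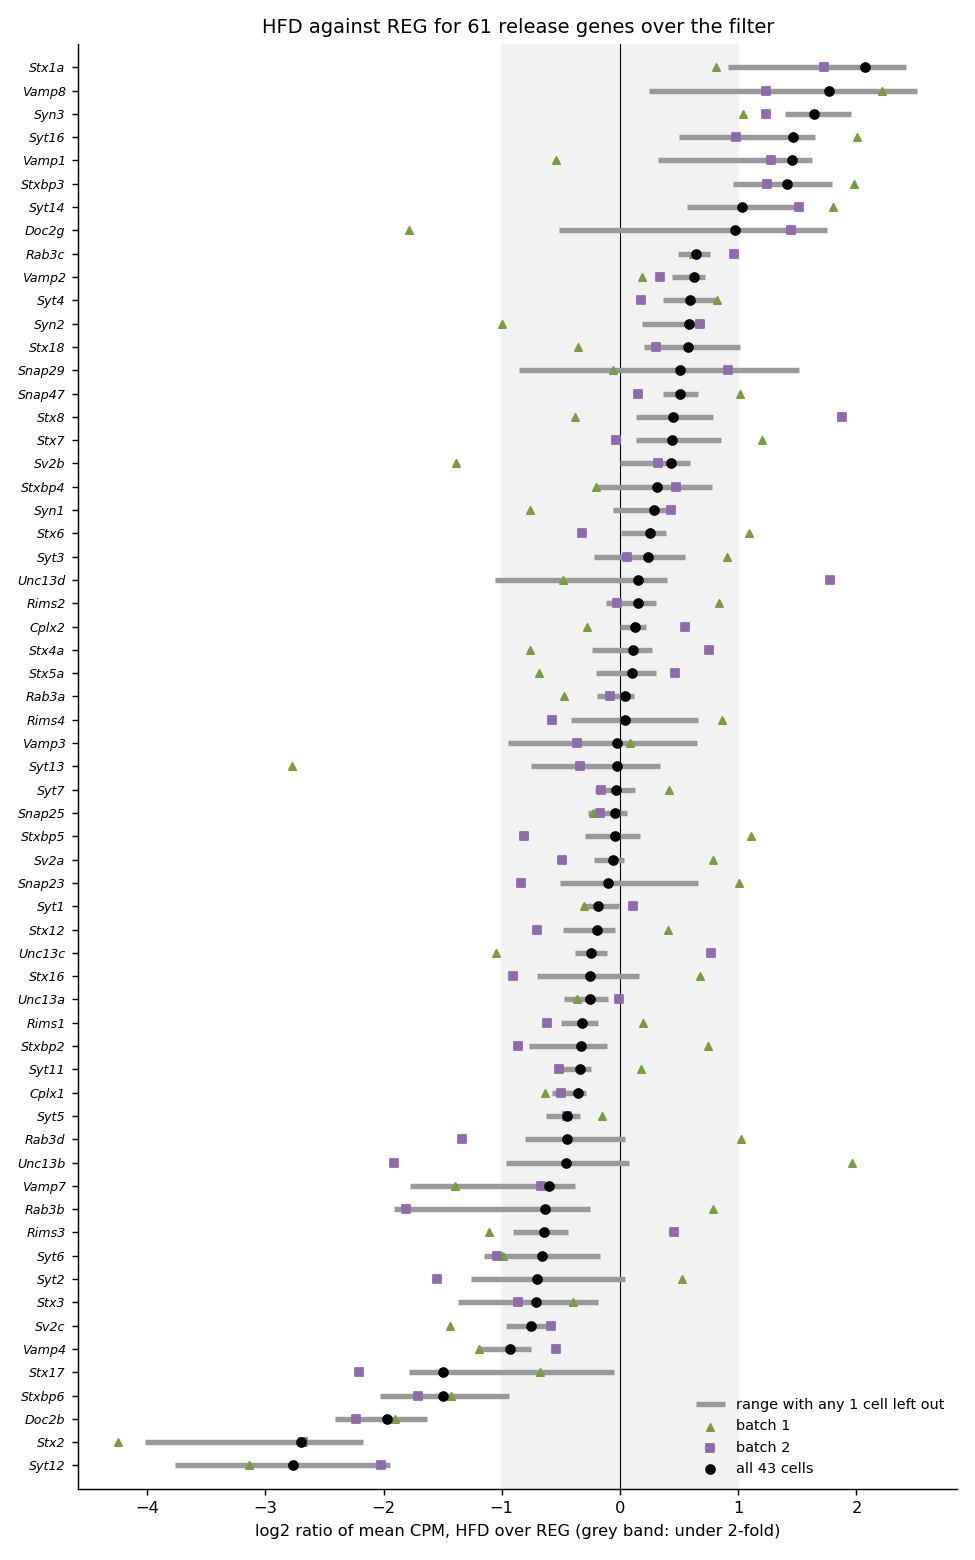
Log2 ratio of mean CPM, HFD over REG (x axis), for 61 of the 63 release genes over the filter (y axis), in all 43 cells (black), in batch 1 (triangles) and in batch 2 (squares), with the range when any 1 cell is left out (grey bars) and the band under 2-fold shaded. *Syn3* near the top and *Doc2b*, *Stx2* and *Syt12* at the bottom stay outside the band in all 3 and over the whole bar. *Stx1a* and *Vamp8*, above *Syn3*, reach into the band, and *Vamp1* and *Doc2g* switch side between batches.

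Of the 12 genes past 2-fold, 4 stayed past it in the same direction in each of 14 alternative values, which included each batch alone, other scalings and the lowest and highest value with any 1 cell left out: *Syn3* above and *Doc2b*, *Stx2* and *Syt12* below. The alternatives reuse the same cells, and the share over all genes was not computed, so this count describes the 12 genes only. *Syn3* was detected in 22 of 23 REG and 19 of 20 HFD cells. It had 11 ± 13.3 CPM in REG cells (lowest 0, median 5.65, highest 57.7) and 34.4 ± 38.0 CPM in HFD cells (lowest 0, median 19.2, highest 137). The medians differ as the means do, and the ranges overlap. The log2 ratio was 1.64, with 1.04 in batch 1, 1.24 in batch 2 and 1.40 to 1.95 with any 1 cell left out. *Syn3* was also higher in the 7 cells with microglial markers (47.8 CPM) than in the other 36 (16.8 CPM), and without those 7 cells its diet ratio was 1.13. The gene (chr10:86055125-86498896, minus strand, GRCm38) shares 14.1% of its exonic bases with *Timp3* on the opposite strand. *Timp3* had means of 7.65 CPM in REG and 5.16 CPM in HFD cells, the other direction from *Syn3*, and a Spearman rho with *Syn3* of −0.03 over the 43 cells.

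*Doc2b* went the other way and was the only *Doc2* gene over the filter and past 2-fold. It had 26.5 ± 36.4 CPM in REG cells (lowest 0, median 15.1, highest 149.7; detected in 17 of 23) and 6.77 ± 10.4 CPM in HFD cells (lowest 0, median 0.960, highest 40.5; detected in 11 of 20). Above 15 CPM stood 12 REG cells and 3 HFD cells. The log2 ratio was −1.97, with −1.91 and −2.23 in batches 1 and 2 and −2.41 to −1.63 with any 1 cell left out. It was −1.95 without the cells with microglial markers and −2.05 after thinning to 150000 counts. Set against each other within a cell, a pairing chosen after the values were seen, *Syn3* had the higher TPM of *Syn3* and *Doc2b* in 11 of 23 REG and 18 of 20 HFD cells. Because the diet ratios of the pair are opposite, this shift follows from the choice and adds nothing to them. The annotated *Doc2b* transcript (chr11:75768966-75796049, minus strand) shares 5.53% of its bases with *Gm12339* on the opposite strand.

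*Stx2* and *Syt12* had the lowest ratios of the 63 genes, and both rest on a few cells with high values. *Stx2*, an epithelial form of syntaxin also known as epimorphin, was detected in 12 of 23 REG cells (52.2%, exact 95% interval 30.6 to 73.2%) and 7 of 20 HFD cells (35%, 15.4 to 59.2%). Its CPM had a lowest, median and highest value of 0, 2.31 and 279.9 in REG cells and 0, 0 and 69.3 in HFD cells. The log2 ratio of the means was −2.70 (−4.24 and −2.68 in batches 1 and 2), and HFD cell 14 alone held 61.9% of the HFD signal. The 7 cells with microglial markers had 0.954 CPM of *Stx2* and the other 36 had 26.2 CPM. Without those 7 cells the ratio was −2.51.

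*Stx2* is a gene of 2 RefSeq starts on chromosome 5, minus strand, and the 250 bases before each are given because the counts, summed by gene, do not say which was used. GC box letters (GGGCGG or CCGCCC) are in capitals in the first, at chr5:129008573-129008822, and TATA box letters (TATAAA or TTTATA) in the second, at chr5:128990237-128990486 (GRCm38.p6).
*Stx2* upstream start: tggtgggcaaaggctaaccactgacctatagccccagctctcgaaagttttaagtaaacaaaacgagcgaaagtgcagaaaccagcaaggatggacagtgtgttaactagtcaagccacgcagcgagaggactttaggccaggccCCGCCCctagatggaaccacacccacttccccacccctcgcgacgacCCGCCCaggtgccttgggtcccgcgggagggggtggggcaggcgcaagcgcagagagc
*Stx2* inner start: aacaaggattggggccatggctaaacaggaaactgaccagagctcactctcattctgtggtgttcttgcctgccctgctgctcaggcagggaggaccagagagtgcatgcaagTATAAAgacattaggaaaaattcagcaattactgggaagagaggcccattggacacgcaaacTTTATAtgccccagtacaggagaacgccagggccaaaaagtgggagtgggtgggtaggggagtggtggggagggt
The first holds 14 CpG dinucleotides and 2 GC boxes, and the second holds 2 CpG and 2 runs of TATA box letters, 1 on each strand.

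*Syt12*, a synaptotagmin without calcium binding that has been tied to spontaneous release, had counts in 17 of 23 REG and 11 of 20 HFD cells. Its CPM had a lowest, median and highest value of 0, 5.87 and 525 in REG cells and of 0, 0.640 and 77.1 in HFD cells. REG cell 1 held 45.6% of the REG signal and HFD cell 20 held 52.4% of the HFD signal. The log2 ratio was −2.76 over all cells, −3.14 and −2.02 in batches 1 and 2, and −3.76 to −1.95 with any 1 cell left out. Without the cells with microglial markers it was −4.98. The gene shares 17.2% of its exonic bases with *A930001C03Rik* on the opposite strand.

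**Figure D5:**
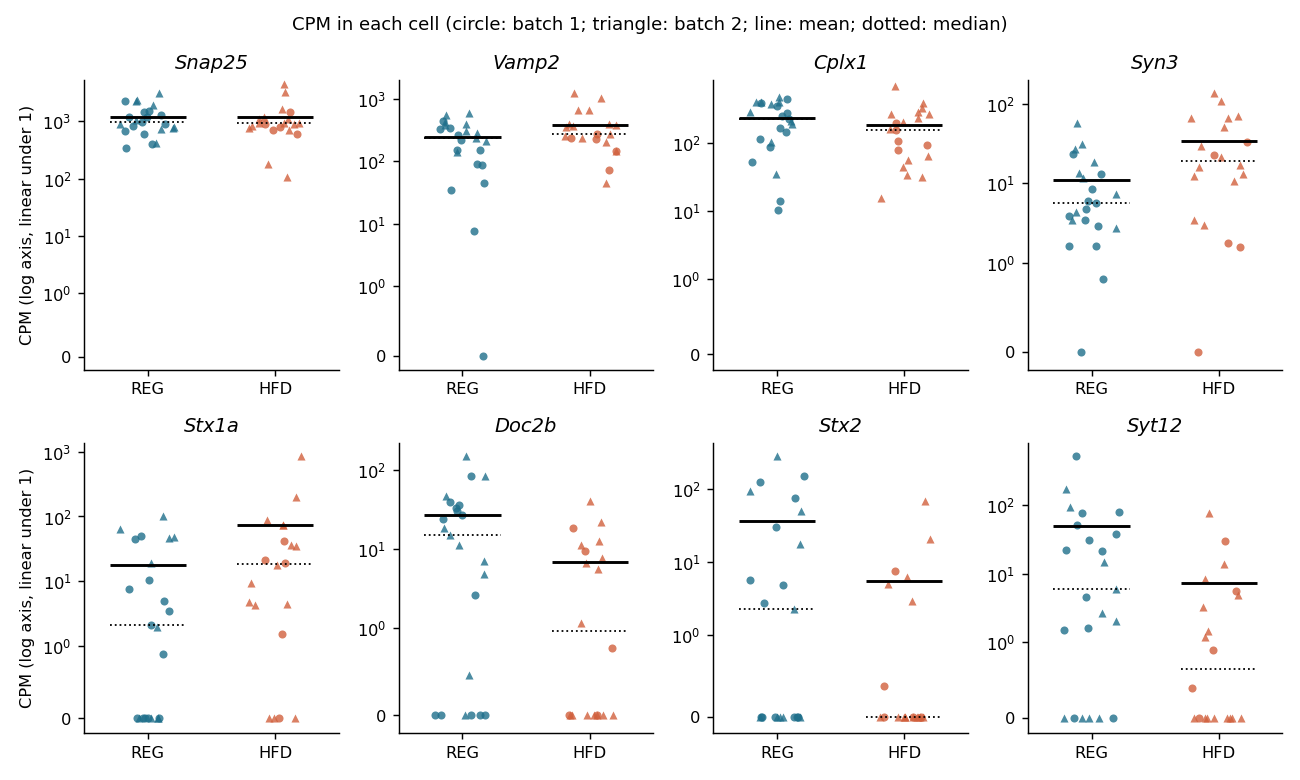
CPM of 8 release genes in each of the 23 REG and 20 HFD cells (y axis logarithmic, linear under 1; circles batch 1, triangles batch 2; solid line mean, dotted line median). *Snap25* and *Cplx1* were present in every cell and *Vamp2* in 42, with overlapping groups, and *Syn3* had the higher median in HFD. *Doc2b* was above 15 CPM in 12 REG and 3 HFD cells. *Stx2* and *Syt12* had cells at 0 in both diets and a few high REG cells.

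For several other genes past 2-fold, 1 cell held over 50% of the signal of its group. *Stx1a* had the highest ratio of the 63, 2.07, from 17.6 CPM in REG (lowest 0, median 2.14, highest 101) and 73.9 CPM in HFD cells (lowest 0, median 18.5, highest 848). HFD cell 19 held 57.3% of the HFD signal, and without it the log2 ratio was 0.91. The medians lay apart in the same direction. *Stx1a* was detected in 14 of 23 REG and 16 of 20 HFD cells, and the batch values were 0.81 and 1.73.

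*Vamp8*, a VAMP of regulated secretion outside neurons, had a log2 ratio of 1.77, but HFD cell 19 held 67.0% of its HFD signal and the ratio without that cell was 0.25. The median CPM was 0.539 in REG and 0.529 in HFD cells. *Syt16*, a synaptotagmin relative without calcium binding, and *Vamp1* drew on HFD cell 13 in the same way, which held 51.3% and 56.8% of their HFD signal. Their ratios were 1.47 and 1.46 with it and 0.50 and 0.32 without it, and the ratio of *Vamp1* in batch 1 alone was −0.54. The median of *Vamp1* was the lower in HFD cells, 12.9 against 18.1 CPM.

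*Stxbp3* (Munc18c), which serves exocytosis outside synapses, and *Syt14*, another synaptotagmin that does not bind calcium, had ratios of 1.41 and 1.03. Both were above 0 in both batches, and both came under 2-fold without 1 HFD cell: *Stxbp3* had 0.96 without HFD cell 14 and *Syt14* had 0.57 without HFD cell 5. Both were low, at 4.14 and 11 CPM for *Stxbp3* in REG and HFD cells and 10.04 and 20.5 CPM for *Syt14*. On the lower side, *Stx17*, the syntaxin of autophagosomes, had −1.49 with REG cell 15 holding 64.8% of the REG signal and −0.05 without it. *Stxbp6* (amisyn), a SNARE-binding protein that slows release, had −1.5, and −0.94 (under 2-fold) without REG cell 16, although it was detected in more HFD cells (17 of 20) than REG cells (14 of 23) and its median was the higher in HFD, 5.06 against 0.685 CPM.

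Other genes of the release machinery were mostly within 2-fold. Of 30 listed genes outside the 75, among them *Nsf* and its partners *Napa*, *Napb* and *Napg*, which take used SNARE complexes apart, the scaffolds *Bsn* and *Pclo* and the vesicle protein *Syp*, 29 were over the filter. *Syngr1* and *Sypl*, membrane proteins of small vesicles, were at least 2-fold higher in HFD cells (1.23 and 2.19), and *Ppfia2*, a liprin of the active zone, and *Amph*, an endocytic adaptor, at least 2-fold lower (−1.14 and −1.93). Each count is 6.90% of the 29, beside 9.04% higher and 14.3% lower of all genes. The median log2 ratio of the 29 was −0.06.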

How the data were processed

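Cells were recorded with a patch pipette in slices, their RNA was amplified with SMART-Seq kits (Takara) and libraries were made with Nextera XT, without molecular identifiers and without strand. The authors pseudo-aligned the reads with kallisto 0.45.1 to the mouse transcriptome (Ensembl, GRCm38), removed cells more than 3 median absolute deviations below the median in reads or genes, and summed transcripts to gene symbols. The deposited tables hold estimated counts, not normalized, and TPM, which the authors scaled within each cell. The submitters' processing notes also name edgeR.

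Diet and batch came from the labels, and cells were numbered within a diet in accession order. No 2 cells had identical counts. CPM was the estimated count over the total of the cell, so a cell with much *Lars2* has less CPM for every other gene. The deepest cell had 16919555 and the shallowest 176961 counts. Detection was an estimated count above 0, with exact (Clopper-Pearson) 95% intervals, and thinning drew 150000 rounded counts per cell with a fixed seed. No test across cells was run, and edgeR coefficients served as values only.

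The 75 genes, the lists and the rule for named genes were chosen with earlier results of these data known. Named were the top pair of each family by mean TPM, a list of 24 core genes of fast release, a list of 10 genes of peptide or asynchronous release, and every filtered gene past 2-fold. Of the 75 genes, 2 enter the counts and sums but are not reported here. The ratio was checked on simulated counts with known changes.

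Annotation was GENCODE vM21 (GRCm38), and upstream sequences were RefSeq's (GRCm38.p6), with the transcribed 50 bases of each 300-base window left out. Scaling factors came from edgeR 4.0.16 and DESeq2 1.42.0 in R 4.3.3, and all other values from Python 3.11.15 with pandas 2.3.3, numpy 2.4.6 and scipy 1.17.1 (figures with matplotlib 3.10.9). Recordings and behaviour were not analysed here.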

Additional observations from a re-analysis of the deposited data

How the results depend on the processing

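The limits are those of 43 libraries without mouse identities. Diets cannot be told apart from mice, batch 1 holds 5 HFD cells, and most genes past 2-fold were absent from many cells, where depth limits detection. Of the 12 genes past 2-fold, 10 kept their direction in each of 14 alternatives, a share that was not computed over all genes. The exceptions were *Stxbp6*, at 0.35 when means of log2(CPM + 1) were compared, and *Vamp1*, at −0.54 in batch 1. No paired analysis was possible because no label links a REG with an HFD cell or names a mouse. Computations without HFD cells 13 and 19, without the cells with microglial markers and with CPM per kilobase were chosen after the data were seen.

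The count of genes at least 2-fold higher, 7, was 19 with DESeq2 factors (21.6% of all genes), 4 by mean log2(CPM + 1) (3.31%), 12 in batch 1 (18.3%), 3 without HFD cells 13 and 19 (7.53%), 4 when the filter asked for 10 cells (6.22%), and 5 to 8 with any 1 cell left out. The count at least 2-fold lower, 5, was 11 by summed counts over summed totals (21.8% of all genes), 8 by mean log2(CPM + 1) (14.1%), 13 in batch 1 (23.9%), 10 in batch 2 (21.1%), 9 as the mean of both batches (16.8%), 9 without the cells with microglial markers (18.5%), 12 with no filter (23.5%), and 4 to 7 with any 1 cell left out. These counts are out of 63 release genes, except with 10 cells or no filter, where the number of release genes differs.

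A change of scale moved the median of all filtered genes by 0.136 with TMM and 0.270 with DESeq2 factors. The median log2 ratio of the release genes, −0.03, was 0.096 and 0.26 under these, −0.065 with TPM, −0.016 without *Lars2* and *Gm19220*, 0.025 by summed counts, −0.14 by mean log2(CPM + 1), −0.15 and −0.037 in batches 1 and 2 and −0.11 as their mean, 0.060 after thinning, −0.045 without HFD cells 13 and 19, −0.051 without the cells with microglial markers, −0.043 with no filter and with 10 cells, 0.10 by edgeR coefficients, 0.12 with batch as a term, and −0.088 to 0.074 with any 1 cell left out.

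The log2 ratio of the summed CPM, 0.03, was −0.024 with TPM, 0.27 with TMM, 0.80 with DESeq2 factors, 0.068 by summed counts, −0.063 by mean log2(CPM + 1), −0.010 and −0.0083 in batches 1 and 2 and −0.0092 as their mean, 0.022 after thinning, −0.080 without HFD cells 13 and 19, −0.0089 without the cells with microglial markers, and −0.042 to 0.098 with any 1 cell left out. Of the 12 leading genes, 7 stayed first by CPM. The 13 genes detected in every cell were 5 at a limit of 15 CPM and 7 after thinning. The cause of these shifts was not tested.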
